A study of Zea mays with 4 samples.

Results

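Of 22084 gene IDs of the Zm00001d series in a table of transcript counts from whole maize (Zea mays) seedlings, 195 (0.883%) were counted in an A188 x B73 hybrid and not in inbred B73. They were chosen by these counts alone: a sum of 10 or more over both hybrid libraries, and 0 in each B73 library. The rule therefore fixed both the level in the hybrid and the absence in B73, and those values are given as a description, with no test. The whole table held 22525 IDs.

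The plants were an A188 x B73 hybrid, described in the labels as an F1 and also called HiII, and inbred B73, to which the hybrid was compared. Both genotypes were greenhouse-grown under days of 14 h and nights of 10 h, no treatment is named, and whole seedlings were taken at stage V3, including the roots. Each genotype had 2 libraries, coded RPI10 and RPI11, and no label states that these are separate plants, so any p-value below measures the spread between these libraries, which may be technical. Libraries of the inbred A188 were not analysed here.

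An F1 plant carries a copy of each nuclear gene from either parent, where that parent has the gene. Maize inbreds are known to differ widely in which genes they contain and express, and a gene expressed in a single parent is often also expressed in the F1, a pattern called complementation or single-parent expression. IDs of the Zm00001d series name gene models of the B73 genome, so each of the 195 IDs is a gene annotated in B73, the line in which it was not counted. The files do not pair these IDs with gene names or functions, and the gene table used here matched none of them, so IDs are printed as deposited, without names, positions or sequences.

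The hybrid libraries were deeper than the B73 libraries. In the hybrid, RPI10 had 1341976 counts and RPI11 had 883812, and in B73, RPI10 had 275271 and RPI11 had 403858. Summed over libraries, the hybrid had 3.28 times the counts of B73. A single count was worth 0.745 and 1.13 CPM (counts scaled to a common library total) in the hybrid libraries, and 3.63 and 2.48 CPM in the B73 libraries. Depth thus differed in the same direction as the rule, and it stands beside each result below.

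The 195 IDs were mostly of low abundance. Their summed hybrid count had a median of 14, with quartiles at 11 and 20 and a range of 10 to 266. The other 5844 Zm00001d IDs with 10 or more hybrid counts had a median of 22. Of the 195, 59 (30.3%) had a sum of 10 or 11, and 51 (26.2%) reached 20. All 195 together took 2367 counts in the hybrid RPI10 library (0.176% of its total) and 1778 in the RPI11 library (0.201%), and none in B73. The 12 most abundant held 1194 of these counts, or 28.8%.

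At the edge of the rule the values ran on without a gap. There were 25 IDs with exactly 10 hybrid counts and none in B73, such as Zm00001d007240 (4 in hybrid RPI10, 6 in hybrid RPI11), Zm00001d007427 (6 and 4) and Zm00001d010802 (4 and 6). Just below the minimum, 28 IDs had 9 hybrid counts and none in B73, such as Zm00001d002937 (6 and 3), Zm00001d003287 (7 and 2) and Zm00001d006310 (7 and 2). On the B73 side, 265 IDs with 10 or more hybrid counts missed the rule by 1 count. The most abundant of them, Zm00001d006875, had 73 and 37 counts in the hybrid libraries and 1 and 0 in the B73 libraries. An ID outside the rule could thus be more abundant than most of those inside it.

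The most abundant ID counted in the hybrid only was Zm00001d005458. It had 115 counts in hybrid RPI10 and 151 in hybrid RPI11, against 0 and 0 in the B73 libraries, which is 85.7 and 171 CPM in the hybrid. It ranked 420 and 231 among all IDs of those libraries. Zm00001d013766 followed with 94 and 76 hybrid counts, against 0 and 0 in B73, or 70.0 and 86.0 CPM in the hybrid. Its hybrid libraries lay closer together than those of Zm00001d005458, whose level in RPI11 was nearly double that in RPI10. Zm00001d018081 had 117 and 17 hybrid counts, against 0 and 0 in B73, so its mean of 53.2 ± 48.0 CPM (SD, n = 2 hybrid libraries) rested mainly on RPI10. Zm00001d047625 had 34 and 62 hybrid counts, against 0 and 0 in B73 (47.7 ± 31.7 CPM in the hybrid), and it was the higher in RPI11.

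The next 8 IDs in abundance had between 55 and 86 summed hybrid counts and no B73 count. Zm00001d024734 had 59 counts in hybrid RPI10 and 27 in hybrid RPI11 (37.3 ± 9.49 CPM, SD, n = 2 libraries here and in the values that follow). Zm00001d021965 had 31 and 38 counts (33.0 ± 14.1 CPM), and Zm00001d018791 had 46 and 26 counts (31.8 ± 3.44 CPM). These 3 IDs differ in the side that is higher: in CPM the first and the last were higher in RPI10 and the middle one in RPI11. Zm00001d040665 had 43 and 25 counts (30.2 ± 2.66 CPM), and Zm00001d021824 had 26 and 32 counts (27.8 ± 11.9 CPM). Zm00001d051779 had 35 and 25 counts (27.2 ± 1.56 CPM). Zm00001d003411 had 36 and 24 counts (27.0 ± 0.233 CPM), the closest match between hybrid libraries among these 12, and Zm00001d015377 had 28 and 27 counts (25.7 ± 6.85 CPM). In CPM, 8 of the 12 were higher in RPI11 and 4 in RPI10. The remaining 183 IDs had means between 3.92 and 21.1 CPM, with a median of 6.00 CPM.

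**Figure D1:**
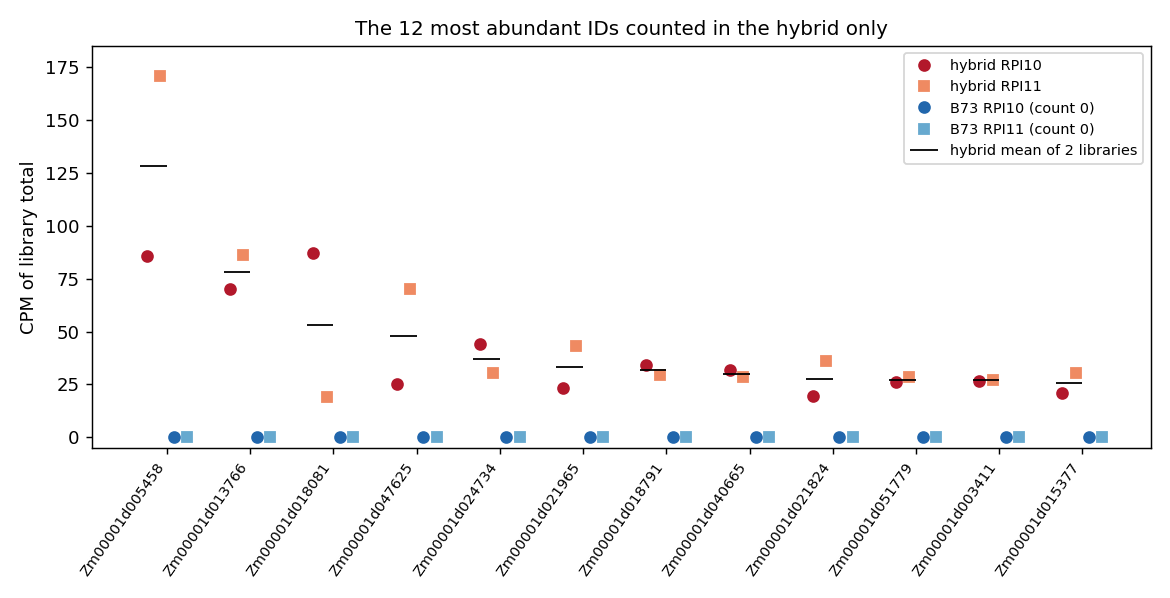
CPM of the library total (y axis) in each hybrid library (red and orange) and each B73 library (dark and light blue) for the 12 most abundant IDs counted in the hybrid only, in order of their hybrid mean (black line, n = 2 libraries). The B73 points all sit at 0, and the hybrid libraries stand far apart for Zm00001d005458 and Zm00001d018081 (87.2 CPM in RPI10, 19.2 CPM in RPI11) and close together for Zm00001d003411.

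The rule used the sum of the hybrid libraries and not the split between them, so the agreement of the libraries could be compared with that of other IDs. Of the 195 IDs, 195 had at least 1 count in hybrid RPI10 and 194 in hybrid RPI11, and 119 had 5 or more counts in each. At the other end, 22 had 2 or fewer counts in either library, 19 of them in the shallower RPI11. Between the hybrid libraries, 126 IDs (64.6%) were within 2-fold in CPM, against 77.1% of the other 5844 Zm00001d IDs with 10 or more hybrid counts. Most of the 195 lie at 10 to 19 hybrid counts. In that range, 63.2% of 144 IDs counted in the hybrid only were within 2-fold, against 70.7% of 2629 IDs also counted in B73. At 10 to 14 counts lay 111 of the 144 and 1683 of the 2629, so the sets were not fully matched in abundance.

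RPI10 held 60.3% of all hybrid counts, and it held 57.1% of the summed counts of the 195 IDs (95% exact Clopper-Pearson interval 55.6% to 58.6%, counting error only). Without Zm00001d005458, the ID with the most counts, the share was 58.1% (56.5% to 59.6%), and without Zm00001d018081, which leans to RPI10, it was 56.1% (54.5% to 57.6%). For each ID the same kind of interval was set around its RPI10 share. For 20 of the 195 IDs (10.3%) the interval did not hold 60.3%, against 15.4% of all 6039 Zm00001d IDs with 10 or more hybrid counts. The interval narrows with the count, so IDs of like abundance were also compared. With 10 to 19 hybrid counts it was 8 of 144 IDs counted in the hybrid only (5.56%) and 136 of 2629 others (5.17%). With 30 to 59 counts it was 5 of 16 (31.2%) against 17.4% of 1095 others, a difference that rests on few IDs. By this measure the hybrid libraries were about as far apart for IDs counted in the hybrid only as for other IDs of low count, and the intervals compare libraries, not conditions.

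Of the 195 IDs, 16 (8.21%) had an interval towards RPI11, against 8.23% of all 6039 IDs, and 4 (2.05%) had one towards RPI10, against 7.22% of all 6039. The RPI11 side was thus near the share over all IDs and the RPI10 side below it, without regard to abundance. The share outside in either direction rises with the count, from 4.46% of other IDs at 10 to 14 counts to 33.9% at 60 to 266. Most of the 195 have low counts, so the share over all 6039 IDs is not one for IDs of like abundance. Ranked by the exact binomial p against the library totals, which weighs the number of counts as well as the share, the first 3 towards RPI11 were Zm00001d005458 (43.2% of its counts in RPI10), Zm00001d047625 (35.4%) and Zm00001d018358, which had 2 counts in RPI10 and 11 in RPI11 (15.4%, interval 1.92% to 45.4%). Zm00001d018358 also had the lowest RPI10 share of the 195, whereas Zm00001d005458 stood first through its high count. Towards RPI10 the first 3 were Zm00001d018081 (87.3%, interval 80.5% to 92.4%), Zm00001d049787 with 17 counts in RPI10 and 1 in RPI11, and Zm00001d041645 with 12 and 0. Zm00001d041645 was the single ID of the 195 with no count in a hybrid library.

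**Figure D2:**
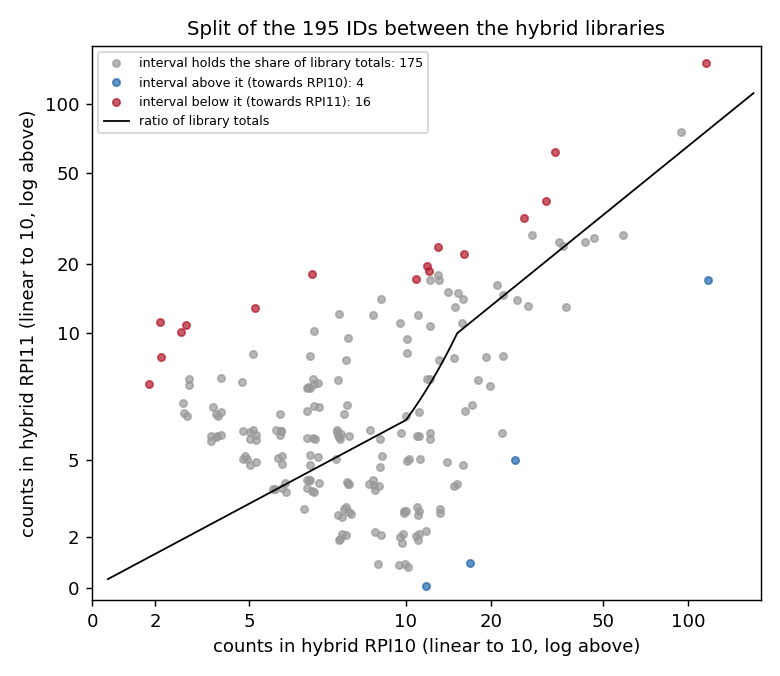
Counts of each of the 195 IDs in hybrid RPI10 (x axis) and hybrid RPI11 (y axis), both linear up to 10 and logarithmic above, with points moved at random by up to 0.25 counts so that ties can be seen; the line is the ratio of the library totals. Grey points (175) have a 95% exact interval that holds the RPI10 share of the totals, 60.3%, red points (16) lie towards RPI11 and blue points (4) towards RPI10.

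A fit across all IDs tested the difference between the codes. The edgeR quasi-likelihood test of RPI11 against RPI10, with genotype as a term, called 107 of 3282 IDs (3.26%) at an adjusted p under 0.05. The filter on low counts kept only 15 of the 195 IDs, all with 37 or more summed hybrid counts. Since B73 had no count of these 15, their values in this fit are those of a single hybrid library against the other, with the spread borrowed from other IDs, so a call among them has no replicate of its own and is given as a description. The fit called 1 of the 15, Zm00001d018081, as lower in RPI11, as it did 2.13% of all IDs tested (log2 fold change -2.22, SE 0.45, edgeR adjusted p = 0.00495; 17 counts in hybrid RPI11, against 117 in hybrid RPI10). Zm00001d047625 had a log2 fold change of 1.40 (SE 0.43, edgeR adjusted p = 0.0871), and Zm00001d005458 of 0.93 (SE 0.34, edgeR adjusted p = 0.167). Neither passed the threshold there, although Zm00001d047625 did with library totals alone (edgeR adjusted p = 0.0242) and with DESeq2 size factors in edgeR (edgeR adjusted p = 0.0396). Zm00001d018081 was called in edgeR with library totals alone (edgeR adjusted p = 0.000266), DESeq2 size factors (0.000160) and no filter (0.00156). It was not called by DESeq2 (adjusted p = 0.997), where its SE was 4.18. Nor was it called by edgeR with genotype left out, a setting that called 0 of 3282 IDs. These 2 settings could hardly have called it, and whether it differs between the codes is not settled by these libraries.

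The same filter bears on the comparison of hybrid with B73. The edgeR quasi-likelihood test of that contrast called 829 of 3282 IDs (25.3%) higher in the hybrid, and the 15 IDs that passed the filter were all among them. The rule chose them by this contrast, and they passed the filter through the hybrid alone, so nothing is read from that count. The other 180 IDs, with up to 50 summed hybrid counts, were too low for the filter.

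What the depth of B73 allows was worked out ID by ID. If an ID took the same share of the counts in B73 as in the hybrid, 10 hybrid counts would correspond to 3.05 counts over both B73 libraries, 1.24 in RPI10 and 1.81 in RPI11. The median ID, with 14 hybrid counts, would correspond to 4.27, and Zm00001d005458 to 81.2. A count of 0 allows up to 3 counts, or 4.42 CPM over both B73 libraries, so these values can be written as lower bounds of the fold difference, which cover counting error in B73 only. The rule chose the IDs on these same counts, so the bounds are a description of what the depth allows and not a test of a higher level in the hybrid. Counts could include copies of the same molecule, and expression can vary between plants, which the bounds leave out.

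On library totals, the bound of an ID with 10 hybrid counts was 1.02-fold, so a level equal to that in B73 was within reach of counting error, and the median bound over the 195 IDs was 1.42-fold. It reached 2-fold for the 51 IDs with 20 or more hybrid counts, 4-fold for 14 and 8-fold for 5. Those 5 were Zm00001d005458 (a bound of 27.1-fold), Zm00001d013766 (17.3), Zm00001d018081 (13.6), Zm00001d047625 (9.76) and Zm00001d024734 (8.75). For the other 144 IDs the bound was under 2-fold. With the floor of 3 counts taken per B73 library, it reached 2-fold for 15 IDs. The trimmed mean of M-values (TMM), a scaling that sets the typical ID level between libraries, lowered the hybrid over B73 depth ratio to 1.98 and the median log2 fold change of all tested IDs differed by -0.72 on library totals relative to TMM. On the TMM scale the bound reached 2-fold for 136 IDs, those with 12 or more hybrid counts. It was 44.8-fold for Zm00001d005458 and 28.6-fold for Zm00001d013766. With TMM, 10 hybrid counts would correspond to 5.05 counts over both B73 libraries, and the bound was 1.68-fold. The 420 Zm00001d IDs with 10 hybrid counts had a median of 5 counts over both B73 libraries, nearer to 5.05 than to 3.05. TMM was set on these same libraries to level the typical ID, so this nearness does not decide between the scalings. The number of IDs with a 2-fold bound differed with the scaling.

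The share of IDs without a B73 count was lower at high than at low hybrid counts, though not at every step. Of Zm00001d IDs with 5 to 9 hybrid counts, 12.2% (432 of 3555) had none in B73. With 10 counts it was 5.95% (25 of 420), with 11 to 14 counts 6.26% (86 of 1374), with 15 to 19 counts 3.37% (33 of 979), with 30 to 49 counts 1.47% (13 of 883) and with 100 to 299 counts 0.701% (3 of 428). Above that, 0 of 226 IDs lacked a B73 count, with an exact upper limit of 1.62%. Over all IDs with 10 or more hybrid counts the share was 3.23% (195 of 6039), which the rule fixes. IDs with 33 or more hybrid counts would correspond to at least 10 B73 counts at an equal share of the totals: of 2015 such IDs, 19 (0.943%) had none in B73 and 115 had 1 to 3. The 19 are the part of the 195 for which the lower depth of B73 matters least.

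**Figure D3:**
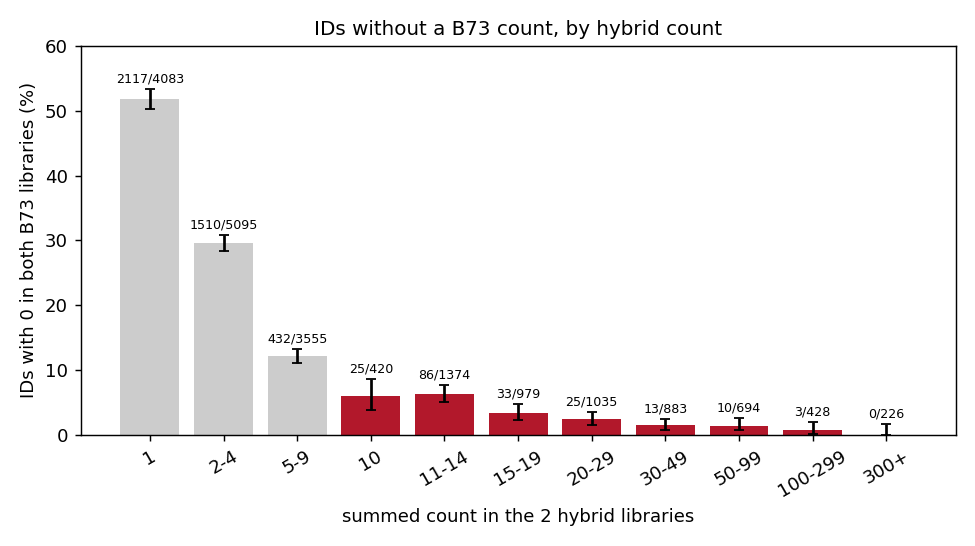
Percent of Zm00001d IDs with 0 counts in both B73 libraries (y axis) by their summed count in the 2 hybrid libraries (x axis), with 95% exact intervals and the number of IDs above each bar; red bars lie within the rule. The share was 51.8% at 1 hybrid count and 0.701% at 100 to 299 counts, and 0 of 226 IDs with 300 or more counts lacked a B73 count.

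IDs were also chosen in one code and described in the other, an alternative added after seeing the data. The rule for the 195 IDs used both codes, so the values that follow are a description and not a check in unused libraries. In the RPI10 pair, 276 Zm00001d IDs had 10 or more hybrid counts and 0 in B73. In the RPI11 pair these IDs summed to 3261 counts in the hybrid and 483 in B73, or 3690 against 1196 CPM, a ratio of 3.09 on library totals and 4.91 with TMM. Their median was 9 counts in the hybrid RPI11 library and 1 in the B73 RPI11 library, and 275 of them were counted again in the hybrid. The B73 RPI11 library had none of 81 of them (29.3%), against 4.81% of all 3906 IDs with 10 or more counts in hybrid RPI10. The other 195 had at least 1 count there. That this number equals the size of the set described above is a coincidence: the 81 IDs belong to that set and the other 195 do not.

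The reverse choice gave the same direction. In the RPI11 pair, 93 IDs had 10 or more hybrid counts and 0 in B73, and in the RPI10 pair they summed to 2258 counts in the hybrid and 95 in B73, a ratio of 4.88 on library totals and 8.36 with TMM. The B73 RPI10 library, the shallowest, had none of 44 (47.3%), against 5.67% of all 2785 IDs with 10 or more counts in hybrid RPI11. Since the choice favours IDs of low count, IDs of the same count range were set beside them. Of the IDs chosen in RPI10 with up to 19 hybrid counts, 79.4% had a higher CPM in the hybrid than in B73 in the RPI11 pair, against 34.0% of 1674 IDs that had a B73 RPI10 count, and with TMM the shares were 90.4% against 52.2%. Of those chosen in RPI11 with up to 22 hybrid counts, 90.0% were higher in the hybrid in the RPI10 pair, against 41.5% of 1525, and with TMM 95.7% against 62.0%. The chosen IDs were thus more often higher in the hybrid in the other pair than the IDs set beside them. Those beside them were taken for having a B73 count in the choosing pair, so any likeness between the B73 libraries would give this direction. Both pairs are also libraries that the rule used, so the shares are a description and not independent evidence of a higher hybrid level. Complete absence from B73 was seen again for less than a majority of the chosen IDs, and the IDs absent again meet the rule by definition. Nothing in the labels says that the codes are separate plants, so the pairs may share plants, and no test was made of these shares.

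**Figure D4:**
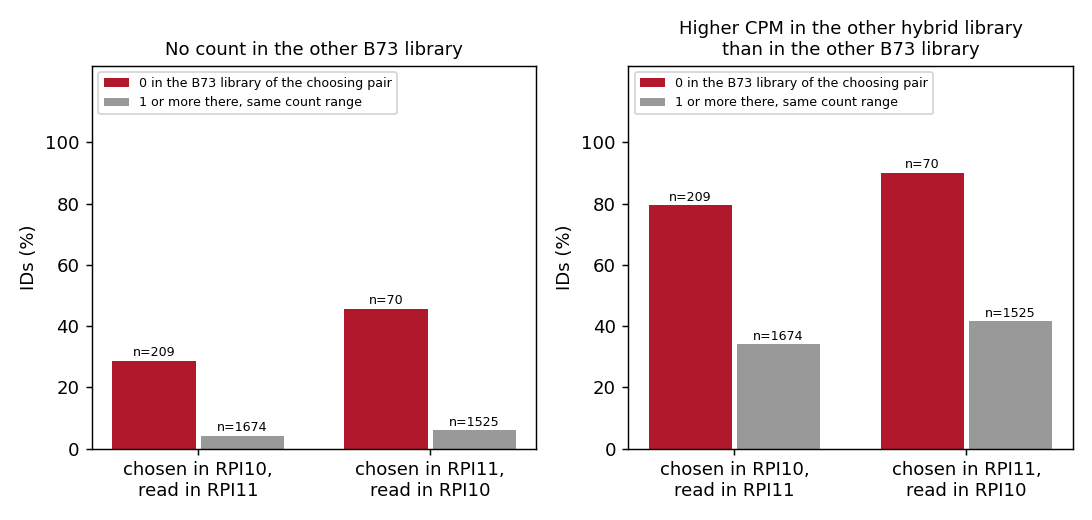
IDs chosen in the libraries of one code (10 or more hybrid counts, 0 in B73; red) and IDs of the same hybrid count range with 1 or more B73 counts in that code (grey), read in the libraries of the other code. The left panel gives the percent with no count in the other B73 library and the right panel the percent with a higher CPM in the other hybrid library than in the other B73 library, and the red bars are the taller in each comparison (on the right, on library totals, 79.4% against 34.0% and 90.0% against 41.5%; with TMM, not drawn, 90.4% against 52.2% and 95.7% against 62.0%).

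ID numbers of this annotation were assigned largely in order along the chromosomes, so neighbouring numbers mostly mark neighbouring genes; the files hold no positions with which to check this. No 2 of the 195 IDs had consecutive numbers. Of the other Zm00001d IDs with 10 or more hybrid counts, 0.924% (54 of 5844) had one of the 195 at the next number on either side. Within a distance of 5 numbers, 10 of the 195 (5.13%) had another such ID, against 3.95% of the 5844. Within 10 numbers it was 5.13% against 7.38%, and within 50 numbers, a distance added after seeing the data, 37.9% (74 IDs) against 30.7%. These shares lay on either side of those of other IDs, and they are a description of positions in the numbering, with no test.

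The 10 IDs within 5 numbers of each other formed 5 pairs. Zm00001d018356 and Zm00001d018358, 2 numbers apart, had 15 and 9 counts and 2 and 11 counts in hybrid RPI10 and RPI11, so the first was split close to the library totals and the second leaned to RPI11. Zm00001d031729 (4 and 6 counts) and Zm00001d031732 (12 and 8) were 3 apart, as were Zm00001d052974 (11 and 3) and Zm00001d052977 (7 and 8), and in these pairs no counted ID lay between. Zm00001d034711 (8 and 2) and Zm00001d034714 (7 and 6) enclosed Zm00001d034713, which had 3 and 2 hybrid counts and 3 and 5 B73 counts. That ID broke the stretch, since it was counted in both B73 libraries. Zm00001d043151 (7 and 8) and Zm00001d043156 (9 and 5), 5 apart, enclosed Zm00001d043152 with 1 and 1 hybrid counts and none in B73, and Zm00001d043155 with none in the hybrid and 1 and 1 in B73. None of the 10 IDs was among the 12 most abundant, and their bounds on library totals ran up to 2.44-fold.

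The nearest IDs in the table on either side of the 195, leaving out the 195 themselves, showed no lean towards the hybrid. Of 152 such neighbours with 10 or more counts over the 4 libraries, 44 (28.9%) had a higher CPM in the hybrid than in B73, against 30.5% of 8459 other IDs. Their median log2 ratio of hybrid to B73, on CPM of summed totals with 1 added, was -0.61, against -0.73 for other IDs. Without the minimum, 18.6% of 381 neighbours had no B73 count, against 19.2% of 21508 other IDs. Among IDs outside the 195, the absence of B73 counts was thus no more frequent beside the 195 than elsewhere in the table. Adjoining IDs that met the rule were left out and do not enter these shares. There were 4 pairs of the 195 next to each other in the table, so 8 of the 195 adjoined another of them. Of the other Zm00001d IDs, at any count, 381 adjoined one of the 195 and 21508 did not. The share was thus higher among the 195, but it rests on 8 IDs and was not tested.

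The 195 IDs were spread over the whole range of numbers. The median distance from one to the next was 187 numbers, and the largest was 1301. In bins of 2000 numbers they made up between 1.20% (3 of 249 IDs, numbers 32000 to 33999) and 5.64% (11 of 195 IDs, numbers 50000 to 51999) of the IDs with 10 or more hybrid counts, apart from the last bin, which held 13 such IDs and none of the 195. Outside the Zm00001d series, 1 ID met the same counts: TIP2-2, a tonoplast aquaporin, with 9 and 2 hybrid counts and none in B73.

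**Figure D5:**
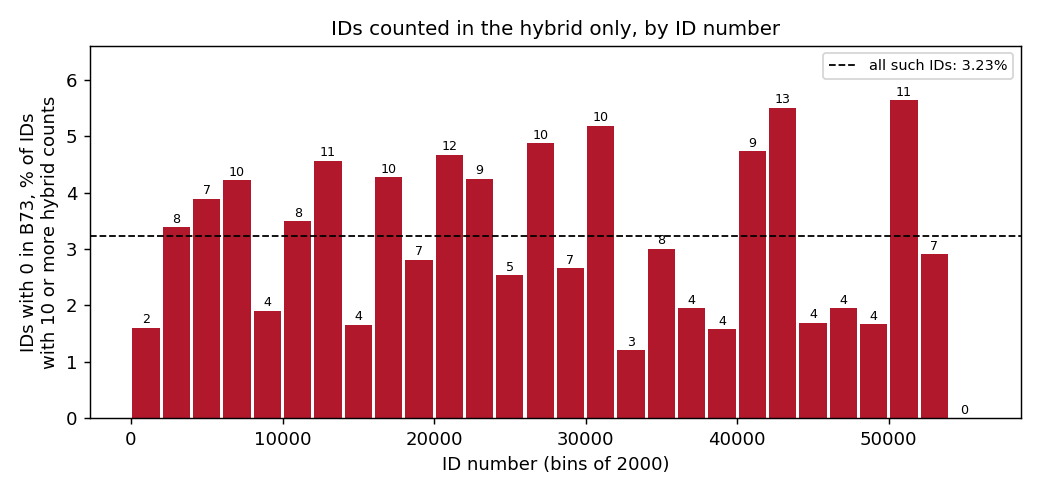
IDs counted in the hybrid only as a percent of Zm00001d IDs with 10 or more hybrid counts (y axis), in bins of 2000 ID numbers (x axis), with their number above each bar; the dashed line is the share over all bins, 3.23%. They occurred in 27 of 28 bins, with no bin above 5.64%.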

How the data were processed

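The authors deposited whole-number transcript counts per ID in 1 table with 4 columns, which were matched to samples by name. Libraries were made by a modified CEL-Seq2, a method that counts transcripts at the 3′ end, per the labels' protocols, and read 1 carried a molecular identifier (10 bp) and a barcode (6 bp). The submitters' processing notes name HISAT2, UMI-tools, CASAVA 1.4 and the genome build B73 RefGen_v4. The annotation, the counting tool and whether identifiers were collapsed are not given in the sources used here.

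Members were selected from the counts by the rule in the report, and the members, lists and tests were chosen with earlier results of these data known. CPM are relative to library totals unless TMM is named. The fits used edgeR 4.0.16 in R 4.3.3 (filterByExpr with a minimum count of 10, TMM, quasi-likelihood test, Benjamini-Hochberg over 3282 IDs) and were tested on simulated data. Standard errors are the absolute log2 fold change over the square root of F. Alternatives were DESeq2 1.42.0, other scalings, filters and minimums, the RPI code as a block, and leaving out libraries. Intervals are exact binomial at 95%, and a count of 0 was read as up to 3 counts over both B73 libraries. Named IDs are the 12 most abundant, the first 3 splits in each direction by exact binomial p against library totals, any called between codes, and up to 3 on each side of the minimum in number order; no ID had a consecutive partner, so pairs within 5 numbers were named after their values were seen.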

Additional observations from a re-analysis of the deposited data

How the results depend on the processing

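The number of IDs counted in the hybrid only, 195, moved with most choices. It was 627 with a minimum of 5 summed hybrid counts, 51 with a minimum of 20, 460 with at most 1 B73 count, and 119 with 5 or more counts in each hybrid library. It was 19 when 10 counts had to be expected at the depth of B73 on library totals, and 51 with TMM. Leaving out a library gave 44 to 658: 44 without hybrid RPI10, 81 without hybrid RPI11, 409 without B73 RPI10 and 658 without B73 RPI11. The 51 IDs with a 2-fold bound became 136 with TMM, 170 with DESeq2 size factors and 15 with the floor of 3 counts taken per B73 library; leaving out a hybrid library gave 53 to 69. The 20 IDs with an unequal split became 12 with a minimum of 20 counts, since fewer IDs remain. The count of 0 IDs with a consecutive partner became 2 within 2 numbers, 10 within 5, 74 within 50, 8 when the next ID in the table was taken, and 22 with a minimum of 5 counts.

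In edgeR, the 15 IDs called between hybrid and B73 became 194 without a filter, since all 195 were then tested, and 10 to 47 when a library was left out, where the lone library of a genotype is assumed to vary like the other genotype. Of all IDs tested, 9.69% were called in either direction without a filter and 50.6% with it. With a library left out, the filter kept 10 to 48 of the 195 IDs. The rule chose the 195 IDs by this same contrast, so nothing is read from how many of them were called. Taking the RPI code as a replicate block gave 15 of 15 again, a number the rule fixes and that says nothing of the block. Over all IDs, the block raised the calls to 1870, against 1662 without it. Whether the codes pair the libraries is not stated. Between codes, the 1 call of 15 (3.26% of all IDs tested) became 2 of 15 in edgeR with DESeq2 size factors (4.72%) or library totals (4.63%). It became 0 with genotype left out, where 0 of all 3282 IDs were called. It was also 0 with DESeq2 (3.11% of all IDs), where 3 of the IDs had an adjusted p. In these last settings 0 of the IDs had an unadjusted p under 0.05, against 3 of 15 in the analysis reported. There, 14.2% of all IDs tested had an unadjusted p under 0.05. Choosing in the RPI11 pair instead of RPI10 gave 44 in place of 81 IDs absent from the other B73 library, from fewer IDs chosen. The cause of the other shifts was not tested.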
